A study of Rattus norvegicus with 12 samples.

Results

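The comparison described here sets the pancreas of streptozotocin-diabetic rats given sodium tungstate (DT) against that of untreated diabetic rats (DU). It covers 6 of the 12 arrays of the series, 3 in each group, and all 15866 probe sets that are not array controls. All animals were adult male Wistar rats, and both DT and DU animals had been made diabetic with an injection of streptozotocin, a toxin of the insulin-producing beta cells. DT rats drank water with sodium tungstate at 0.7 g/L in the first week and at 2 g/L for a further 4 to 5 weeks, and DU rats drank plain deionized water over 5 to 6 weeks. The other 6 arrays came from healthy rats with (HT) and without (HU) the same tungstate treatment. Each array held RNA pooled from the whole pancreas of 3 rats, so that 9 rats stood behind each group. Since the tissue was taken whole, fewer cells of a type and less RNA per cell cannot be told apart.

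The pancreas is mostly exocrine tissue, in which acinar cells make, fold and store digestive enzymes for release into the gut, while the islets, scattered through it, secrete insulin and glucagon. Acinar cells depend on insulin from neighbouring islets for amylase production. Tungstate is an oral agent that lowers blood glucose in diabetic rodents.

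Of 12 acinar markers measured, 11 read over 13 on every DT and DU array, with procarboxypeptidase A1 (Cpa1) at 14.40, 14.34 and 14.39 on the DT arrays and at 14.28, 14.29 and 14.28 on the DU arrays (log2 intensity). The exception was the amylase Amy2a3, which read 6.45 to 8.78 in DU. Ins2, an insulin gene, averaged 8.63 ± 0.32 in DU and 13.34 ± 0.09 in HU (SD, n = 3 each), as a check of the diabetic label. Array medians lay between 6.63 and 6.7 and values reached 14.56 at most. The 3′ to 5′ difference of the GAPDH control, a sign of RNA integrity, was 0.69 to 0.94 in DT and 0.64 to 0.87 in DU. The records of the arrays placed replicates 1 and 2 of both DT and DU on chip lot 1 and replicate 3 of both on chip lot 3. Replicates 1 and 2 of HT and HU lay on lot 2, HT replicate 3 on lot 3 and HU replicate 3 on lot 1. Only DT vs. DU is therefore balanced by lot, and comparisons with HT or HU are not. The record of DU replicate 2 alone noted 7 hours of in vitro transcription.

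With tungstate, 177 of the 15866 probe sets passed an adjusted p of 0.05 in DT vs. DU (1.12%). Of these, 104 were higher in DT (0.655% of all tested) and 73 were lower (0.46%). The rises had a median of 1.63-fold and the falls a median of 1.72-fold, and 28 rises and 26 falls exceeded 2-fold. In all 177 the 3 DT arrays lay entirely above or entirely below the 3 DU arrays, as they did in 2200 of all 15866 probe sets (13.9%), and among called probe sets such separation is nearly fixed by the call. Of the 177, 89 stayed called in each of the 12 fits that left out an array. DU replicates 2 and 3 were each the only array of their scan day. A fit with scan day as a block therefore compared DT replicates 1 and 2 with DU replicate 1 alone. Its calls are not counted here. Counted by gene, with each gene taken at its brightest probe set, 84 of 10411 genes rose (0.807%) and 59 fell (0.567%). These shares are the background for every list count below. The lists were made with earlier results of these data known, so their counts are descriptive only. The median difference over all these genes was 0.00 log2 units.

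**Figure D1:**
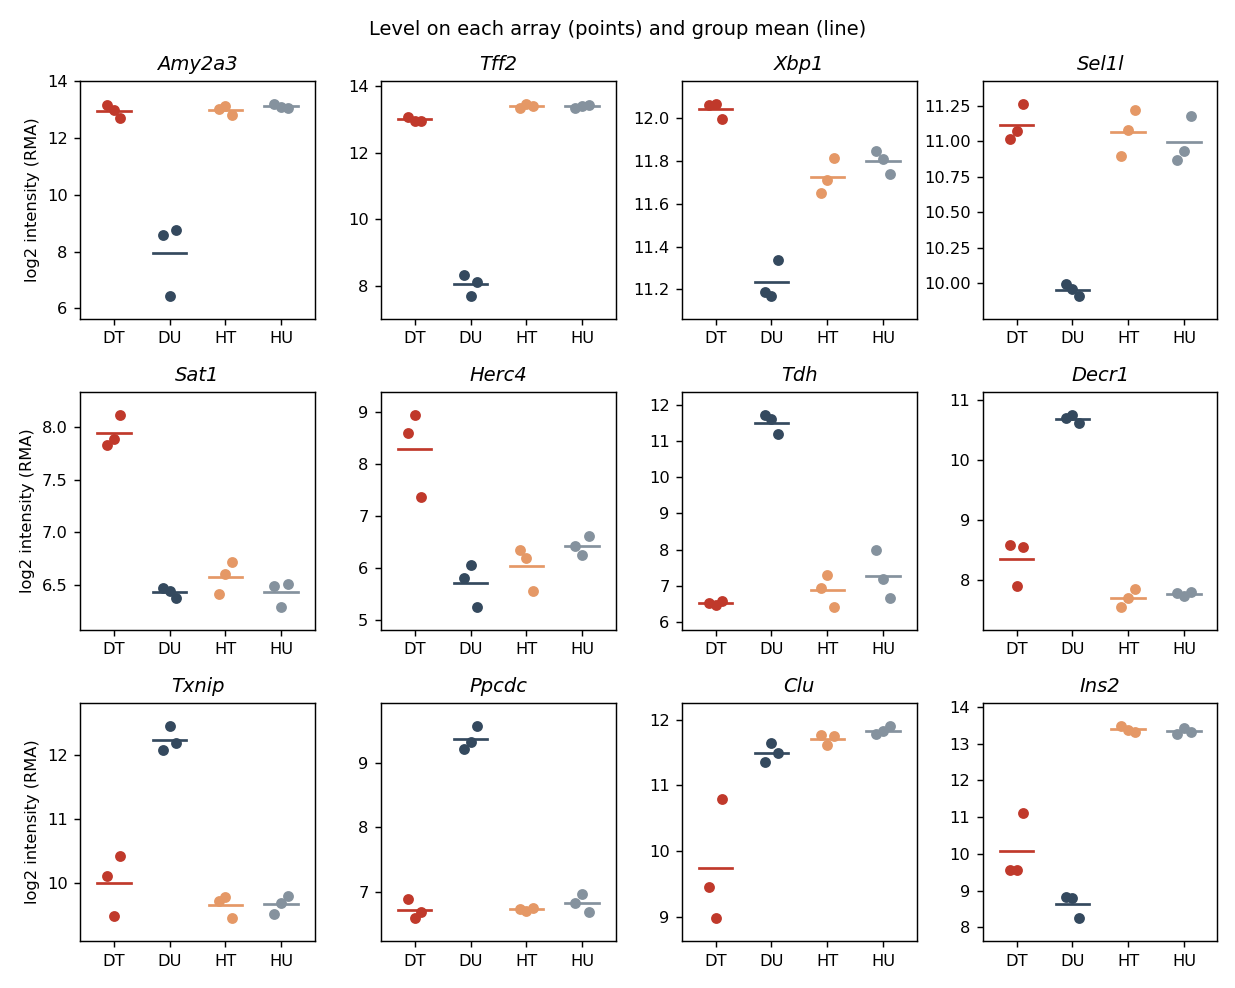
Level of 12 genes on each array (vertical axis, log2 intensity) in DT, DU, HT and HU, with each point 1 array and each line the mean of 3 arrays. Amy2a3, Tff2, Xbp1, Sel1l, Sat1 and Herc4 lay higher on all 3 DT arrays than on any DU array, Tdh, Decr1, Txnip, Ppcdc and Clu lay lower, and Ins2 was spread over 9.56 to 11.11 in DT.

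Amy2a3 and Tff2 rose most. Amy2a3, pancreatic alpha-amylase, read 13.17, 12.98 and 12.70 on the DT arrays, against 8.59, 6.45 and 8.78 on the DU arrays. The lowest DT array thus lay far above the highest DU array, and DU replicate 2 was the lowest of all. The difference was 5.01 ± 0.42 log2 units (SE), or 32.2-fold (adjusted p = 2.02e-05 by limma), with 5.55 in chip lot 1 and 3.92 in lot 3. Its level in HU averaged 13.12 ± 0.07 (SD, n = 3).

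Amy1, a second amylase gene, read 8.39, 8.44 and 8.35 in DT, against 4.45, 4.41 and 4.41 in DU. Of all probe sets, 6.32% had a DU mean at or below that of Amy1, so the level in DU was near the floor of the arrays. The measured difference was 15.7-fold (3.97 ± 0.25, adjusted p = 1.04e-06), and its true size against so dim a level is not resolved. The amylase genes are close copies of each other, so their probe sets may share signal. A further probe set, annotated to both genes, was also called higher in DT (3.35 log2 units).

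No other digestive enzyme passed the test. Of 19 digestive enzyme genes measured, the 2 amylases passed the test upward and none downward, and the list's median difference was 0.02. Elastase 1 (Cela1) read 14.00, 14.09 and 14.09 in DT and 14.04, 13.99 and 13.93 in DU, and pancreatic lipase (Pnlip) read 14.31, 14.30 and 14.24 in DT and 14.37, 14.37 and 14.26 in DU. The groups overlapped for both genes, whose values sat near the top of the array's range. Among 19 genes of acinar granules, receptors and factors, 2 rose. Cuzd1, a protein of the zymogen granule membrane, read 13.94, 13.93 and 13.96 in DT and 13.17, 13.25 and 13.12 in DU, a 1.7-fold rise (adjusted p = 3.54e-05). Sctr, the secretin receptor, was 1.87-fold higher (adjusted p = 0.0069), and Aqp8, a water channel of the acinar membrane, was 2.25-fold higher (adjusted p = 0.00451).

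Genes of mucus and mucosal surfaces included the second largest rise. Tff2, a trefoil peptide that stabilises mucus, read 13.09, 12.96 and 12.97 in DT, against 8.32, 7.70 and 8.12 in DU. It had the smallest adjusted p of the comparison (3.77e-11, 4.96 ± 0.12 log2 units, 31.1-fold) and reached 13.40 ± 0.04 in HU. Fcgbp, an Fc-binding protein of mucus, read 8.78, 8.44 and 8.55 in DT and 7.05, 6.88 and 7.67 in DU (2.62-fold, adjusted p = 0.000633). Its DT arrays all lay above the DU arrays and near its HU mean of 8.48. Anpep, the membrane peptidase aminopeptidase N, was 2.97-fold higher in DT (10.32 ± 0.15, against 8.75 ± 0.25 in DU). Tspan8, a tetraspanin of epithelial surfaces, read 7.15, 6.77 and 6.53 in DT and 5.39, 5.39 and 5.31 in DU, with an HU mean of 5.57, so that it stood above both untreated groups. Of 13 mucosal and trefoil genes, 3 rose, beside 0.807% of all genes, none fell, and the median was 0.21.

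The endoplasmic reticulum is where secreted proteins are folded, and its stress response turns on chaperones and the machinery that removes misfolded chains. In that list 4 of 44 genes rose, beside 0.807% of all genes, and none fell. The median was 0.14, and 35 of the 44 differences were above 0, beside 51.5% of all genes. Some lists without calls also leaned upward. Of 65 respiratory chain genes 45 were above 0 and 20 below, and of 57 translation genes 37 were above and 20 below. Xbp1, the transcription factor that drives the response and is needed for acinar secretion, read 12.06, 12.06 and 11.99 in DT and 11.19, 11.17 and 11.34 in DU. Both groups were tight and far apart relative to their spread, and the rise of 0.81 ± 0.08, or 1.75-fold, had an adjusted p of 6.23e-05. Sel1l, an adaptor that feeds misfolded proteins into degradation, read 11.01, 11.07 and 11.26 in DT and 9.99, 9.96 and 9.91 in DU. Its groups did not overlap, and it was 2.24-fold higher (adjusted p = 4.3e-05), with an HU mean of 10.99 ± 0.17.

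Sdf2l1, a cofactor of the chaperone BiP, rose 1.99-fold (10.22 ± 0.06 in DT, 9.22 ± 0.25 in DU, adjusted p = 0.000297), and Trib3, a pseudokinase induced by stress, rose 1.62-fold (adjusted p = 0.0218). The Trib3 call was lost in 4 of the 12 fits that left out an array (without DT replicate 2 or 3 or DU replicate 1 or 3, adjusted p up to 0.109). It was also lost in the limma fit of chip lot 1 alone (adjusted p = 0.149). BiP itself, Hspa5, read 10.68, 10.76 and 10.67 in DT and 10.36, 10.41 and 10.65 in DU. Its difference of 0.23 ± 0.24 missed the threshold (adjusted p = 0.854), as did those of the stress factors Atf4 (0.14) and Ddit3 (-0.09). Nupr1, a stress protein of the injured pancreas, was 0.79 log2 units lower in DT (11.25, 10.35 and 11.17, against 11.74, 11.66 and 11.73 in DU), and its adjusted p of 0.082 also missed the threshold.

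The element through which ATF6 and XBP1 bind such genes, the endoplasmic reticulum stress element (ERSE), has the letters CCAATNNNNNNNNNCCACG. RefSeq promoters (GRCr8), taken from 250 bases before to 50 bases after a gene's start, were searched for it on both strands. It stood in 22 of 33469 promoters (0.0657%), in 18 of 9466 belonging to genes on the array (0.19%), and in 8 of 39 from the folding list (20.5%). Of the 86 promoters found for genes that rose, 1 held it, that of Xbp1, and of the 50 found for genes that fell, 0 did. With any base allowed at the fourth position of its right end (CCAATNNNNNNNNNCCANG), it stood in 112 promoters (0.335%), and in 53 of the 9466 of genes on the array (0.56%). This added Sel1l and Tmem256 to the genes that rose. The Sel1l promoter lacks the exact element and differs from it at that same position, so its relaxed match is no evidence of a working element. The 3 promoters are shown since 2 belong to folding genes that rose and 1, Hspa5, to the best known gene of the response, which did not pass. They lie at chr14:84604373-84604672 (plus strand) for Xbp1, chr6:116510312-116510611 (minus strand) for Sel1l and chr3:38452766-38453065 (plus strand) for Hspa5. Capitals mark the match, which is exact in Xbp1 and Hspa5 and relaxed in Sel1l.
Xbp1: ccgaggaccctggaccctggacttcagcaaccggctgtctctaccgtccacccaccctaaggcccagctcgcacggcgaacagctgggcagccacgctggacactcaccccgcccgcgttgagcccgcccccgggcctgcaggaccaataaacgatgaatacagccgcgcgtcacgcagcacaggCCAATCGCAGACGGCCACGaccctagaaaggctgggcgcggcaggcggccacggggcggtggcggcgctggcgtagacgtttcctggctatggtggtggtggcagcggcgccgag
Sel1l: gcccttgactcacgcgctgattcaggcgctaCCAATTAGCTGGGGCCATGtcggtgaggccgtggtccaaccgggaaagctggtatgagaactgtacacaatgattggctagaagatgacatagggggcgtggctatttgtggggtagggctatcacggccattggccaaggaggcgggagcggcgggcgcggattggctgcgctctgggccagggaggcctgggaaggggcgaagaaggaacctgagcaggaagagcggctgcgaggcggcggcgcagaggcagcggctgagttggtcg
Hspa5: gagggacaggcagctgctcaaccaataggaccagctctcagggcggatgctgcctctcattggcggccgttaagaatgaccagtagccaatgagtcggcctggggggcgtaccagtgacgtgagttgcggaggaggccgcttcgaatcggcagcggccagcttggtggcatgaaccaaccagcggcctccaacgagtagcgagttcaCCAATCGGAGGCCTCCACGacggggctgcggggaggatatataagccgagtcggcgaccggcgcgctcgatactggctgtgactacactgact

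The match ended 47 bases before the start in Xbp1, 201 bases before it in Sel1l and 25 bases before it in Hspa5. The 8 folding genes whose promoter held the exact element had a median difference of 0.09 and ranged between -0.03 and 0.81, beside a median of 0.15 for the 30 folding genes whose promoter did not. The short XBP1 core ACGTGG, which can overlap the right end of the ERSE, was found in 7.84% of all promoters. Among genes on the array the share was 10.6%, and it was 10.5% for genes that rose, 2% for genes that fell, 28.2% for the folding list and 40.7% for the 54 promoters of the secretory pathway list.

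Of 61 secretory pathway genes, 1 rose and none fell. Among 29 genes of the translocon, the signal peptidase and glycosylation, 0 passed the adjusted threshold, while 26 had a difference above 0 and the median was 0.22, beside 51.5% of all genes above 0. Ssr2, a subunit of the translocon-associated complex, averaged 10.22 ± 0.06 in DT and 9.83 ± 0.14 in DU (0.39 log2 units, adjusted p = 0.071). Among 32 genes of transport vesicles, whose median was 0.07 in lot 1 and -0.02 in lot 3, the 1 that rose was Bet1, a SNARE of vesicle fusion (1.42-fold, adjusted p = 0.0193, lost in 4 of the 12 fits that left out an array). Outside the lists, and picked after their values were seen, Rrbp1, a ribosome anchor of the endoplasmic reticulum, was 1.71-fold higher (adjusted p = 0.03, lost in 6 of the 12 fits that left out an array, with up to 0.155, and 0.0562 with chip lot as a block), and Qsox1, an oxidase that forms disulfide bonds in secreted proteins, rose 1.97-fold (adjusted p = 0.00131).

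Single genes of several signalling pathways moved. Dusp6, a phosphatase that switches off Erk, read 9.52, 9.57 and 10.89 in DT and 8.56, 8.54 and 8.22 in DU. All DT arrays lay above the DU arrays, with DT replicate 3 far above the others, and the rise was 2.94-fold (adjusted p = 0.0117, and 0.058 without DU replicate 3). A second of its 3 probe sets also passed (2.13-fold), and the third did not (adjusted p = 0.182). The rise was 1.00 in chip lot 1 and 2.67 in lot 3. Egr1, an immediate early gene, was 1.78-fold higher (adjusted p = 0.0432), and its call was lost in 10 of the 12 fits that left out an array, with an adjusted p of up to 0.198. Pebp1, the Raf kinase inhibitor protein, read 9.87, 9.61 and 9.82 in DT and 10.48, 10.43 and 10.40 in DU, a 1.59-fold fall (adjusted p = 0.0015) to a level under its HU mean of 10.14. Of 80 genes of MAPK, immediate early and growth signalling, 3 rose, 1 fell, and the median was -0.01. Of all genes 0.807% rose and 0.567% fell.

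Tgfb3, a TGF-beta ligand, read 8.93, 8.49 and 8.70 in DT and 7.46, 7.28 and 7.66 in DU (2.36-fold, adjusted p = 7.94e-05). Sostdc1, a secreted antagonist of BMP and Wnt signals, read 8.90, 8.68 and 9.21 in DT and 7.80, 7.76 and 7.92 in DU (2.15-fold, adjusted p = 0.000297). The groups did not overlap for either gene, and both DT means exceeded the HU means of 7.85 and 8.41. Fgf13, an intracellular FGF homologue, was 2.12-fold higher (8.75, 7.54 and 8.29, against 7.21, 7.15 and 6.98 in DU, adjusted p = 0.0225), and its call was lost in 5 of the 12 fits that left out an array, with an adjusted p of up to 0.089. Fzd1, a Wnt receptor, fell 1.26-fold (adjusted p = 0.0343), a call lost in 9 of the 12 fits that left out an array (adjusted p up to 0.169). Of 62 genes of the TGF-beta, BMP, Wnt and Notch pathways, Tgfb3, Sostdc1 and Fzd1 passed and the other 59 did not. Among 26 tyrosine and dual specificity phosphatases, Ptprf (1.48-fold) and Ptprn2 (1.4-fold) were higher, and Ptp4a3 (1.75-fold) and the inositol phosphatase Impa2 (3.23-fold), which the list also held, were lower. In those fits the call was lost in 8 for Ptprf, 5 for Ptprn2, 4 for Ptp4a3 and 0 for Impa2.

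Sat1, Herc4 and C2cd4b rose above their levels in all other groups. Sat1, the rate-limiting enzyme of polyamine breakdown, read 7.83, 7.89 and 8.12 in DT, against 6.47, 6.44 and 6.37 in DU and a mean of 6.43 in HU. This was a 2.87-fold rise (adjusted p = 2.29e-06), and none of the other 9 polyamine genes measured passed. Herc4, a ubiquitin ligase, read 8.60, 8.94 and 7.36 in DT and 5.82, 6.06 and 5.26 in DU. DT replicate 3 was the lowest of its group, yet above all arrays of the other groups, and the rise was 6-fold (adjusted p = 0.000937). C2cd4b, a nuclear protein known from inflamed endothelium, rose 3.78-fold (10.23 ± 0.55 in DT, 8.32 ± 0.06 in DU), with 1.59 in lot 1 and 2.57 in lot 3.

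Other genes had DT levels near those of HU, or below them. Cyp2d2, a cytochrome P450, read 8.90, 8.68 and 8.96 in DT and 7.48, 7.35 and 7.54 in DU (2.63-fold), with an HU mean of 8.77. Cd24, a surface glycoprotein, was 2.44-fold higher (8.96 ± 0.32 in DT, 7.68 ± 0.51 in DU, 9.24 ± 0.14 in HU). Ang, the secreted ribonuclease angiogenin, was 2.39-fold higher (11.37 ± 0.20 in DT, 10.11 ± 0.19 in DU, 11.64 ± 0.23 in HU). Gstp1, a glutathione transferase, was 1.89-fold higher (10.33 ± 0.24 in DT, 9.41 ± 0.16 in DU, 10.38 ± 0.15 in HU). Probe sets shared by several core histone genes, picked after their values were seen, averaged 7.61 in DT, 6.37 in DU and 8.27 in HU for H2A, 9.24 in DT, 8.11 in DU and 9.05 in HU for H2B, and 6.99 in DT, 6.36 in DU and 7.09 in HU for H4, and all 3 were called higher in DT than in DU. Fads2, a fatty acid desaturase, was 1.55-fold higher (adjusted p = 0.0216, lost in 5 of the 12 fits that left out an array), and the other 38 genes of lipid and sterol synthesis did not pass at their brightest probe set.

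Insulin RNA lay far below its healthy level in both diabetic groups. Ins2 read 9.58, 9.56 and 11.11 in DT, against 8.84, 8.79 and 8.26 in DU and 13.34 in HU. The DT arrays lay above the DU arrays, but replicate 3 stood well above the other DT arrays, and the difference was 0.75 in chip lot 1 and 2.85 in lot 3. The pooled rise was 2.74-fold (1.45 ± 0.31, adjusted p = 0.0387), and it was lost in 9 of the 12 fits that left out an array, with an adjusted p of up to 0.145. Ins1, the other insulin gene of the rat, read 11.43, 11.06 and 12.36 in DT and 10.86, 10.99 and 10.44 in DU (0.86 log2 units, adjusted p = 0.16). Iapp, which is secreted with insulin, and the beta cell factors Pdx1 and Nkx6-1 had adjusted p values of 0.76, 0.93 and 0.97. On the same arrays glucagon (Gcg) read 8.36, 7.79 and 9.32 in DT and 9.02, 8.56 and 8.36 in DU, so DT replicate 3 was the highest DT array for alpha cell RNA as well. The summed linear intensity of 6 beta cell markers was 3484 to 8674 in DT and 2374 to 3170 in DU, and that of 4 other islet hormones 1210 to 3146 in DT and 1948 to 2398 in DU. The part of islet content of the pools in the Ins2 difference was not tested. Of 19 beta cell genes, Ins2 and Ptprn2, a granule protein, rose and Hadh, described next, fell.

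More falls belonged to fatty acid oxidation than to any other list. In its list of 41 genes, 13 fell and none rose, against the 0.567% of all genes that fell, and the median was -0.26. Among the 16 genes of mitochondrial beta-oxidation 9 fell, the median was -0.71, and all 16 differences were below 0. That median was -0.65 in chip lot 1 and -0.71 in lot 3. In HT vs. HU the same 16 genes had a median of -0.12.

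Decr1, the reductase that lets unsaturated fatty acids enter beta-oxidation, read 8.58, 7.90 and 8.55 in DT, against 10.70, 10.74 and 10.61 in DU. Every DT array lay well below the DU arrays, and the fall was 5.07-fold (-2.34 ± 0.15, adjusted p = 1.06e-06). The HU mean was 7.77. Ech1, an isomerase of the same side branch, read 9.13, 8.33 and 8.96 in DT and 10.50, 10.55 and 10.70 in DU (3.43-fold lower, adjusted p = 8e-05). Hadh, the short-chain dehydrogenase, read 8.79, 8.39 and 8.85 in DT and 10.16, 10.32 and 9.91 in DU (2.73-fold lower, adjusted p = 6.23e-05). The groups were separate for both genes, although a second, dimmer probe set of Hadh did not pass (-0.08, adjusted p = 0.911).

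Acadl, the long-chain acyl-CoA dehydrogenase, fell 2.45-fold (7.06 ± 0.20 in DT, 8.35 ± 0.14 in DU). The subunits of the trifunctional protein fell together, Hadha 2.04-fold (7.56 ± 0.23 in DT, 8.58 ± 0.22 in DU) and Hadhb 1.97-fold (8.87 ± 0.10 in DT, 9.85 ± 0.07 in DU). Acaa2, the last enzyme of the cycle, fell 1.84-fold, Eci1 1.69-fold (a call lost in 6 of the 12 fits that left out an array), and Etfdh, which passes the electrons to the respiratory chain, 1.58-fold. Acadvl (-0.05), Acads (-0.07) and Echs1 (-0.06) did not pass and their groups overlapped. Acadm, the medium-chain dehydrogenase, was 0.33 lower with an adjusted p of 0.323.

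**Figure D2:**
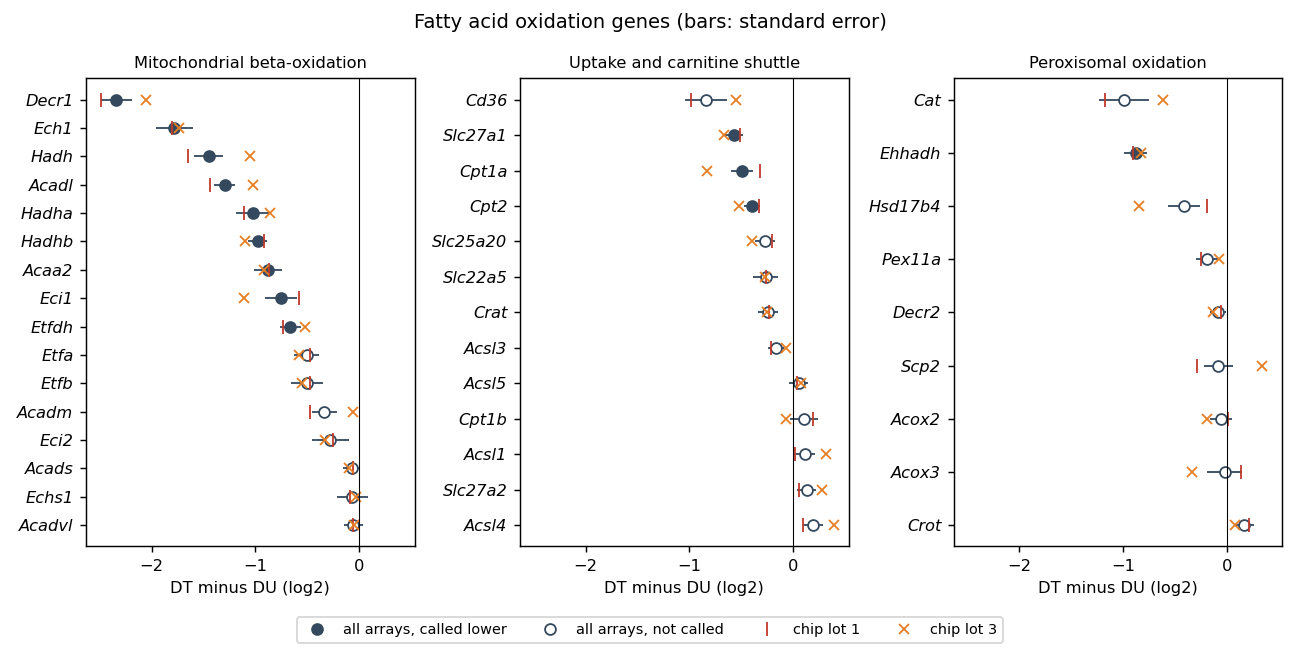
DT minus DU (horizontal axis, log2) for 38 fatty acid oxidation genes in 3 steps, with circles for the fit of all arrays (filled when called, bars the standard error), ticks for chip lot 1 and crosses for chip lot 3. All 16 mitochondrial genes lie left of 0, and Decr1, at -2.34, lies farthest left.

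The step that brings fatty acids into mitochondria moved the same way in part. Cpt1a, the gate of the carnitine shuttle, fell 1.4-fold at its brightest probe set (8.04 ± 0.14 in DT, 8.53 ± 0.18 in DU, adjusted p = 0.0451) and 2.57-fold at a second probe set (7.68 ± 0.57 in DT, 9.04 ± 0.17 in DU, adjusted p = 0.00495). Both probe sets passed, and they differed in size. The call of the brightest was lost in 10 of the 12 fits that left out an array (adjusted p up to 0.159). Cpt2 fell 1.31-fold (lost in 3 of those fits) and the fatty acid transporter Slc27a1 1.48-fold. Of 9 peroxisomal genes, Ehhadh fell 1.84-fold (4.68 ± 0.08 in DT, 5.55 ± 0.25 in DU, adjusted p = 0.000854), and catalase (Cat) was 0.99 lower with an adjusted p of 0.078. The Ehhadh level in DT was close to that of Amy1 in DU (4.42), near the floor, so the size of its fall is poorly resolved.

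Genes commonly listed as PPAR targets or as handling coenzyme A fell in 4 of 33 cases and rose in none, with a median of -0.08. Of all genes 0.567% fell. Ppcdc, an enzyme of coenzyme A synthesis, read 6.88, 6.59 and 6.68 in DT and 9.22, 9.33 and 9.58 in DU, a 6.31-fold fall (adjusted p = 7.7e-09) to a level next to the HU mean of 6.83. Angptl4, an inhibitor of lipoprotein lipase that fasting induces, read 5.20, 5.39 and 5.21 in DT and 6.75, 6.83 and 7.39 in DU (3.3-fold lower, adjusted p = 1.13e-05). For both genes the 3 DT arrays were close to each other and well below the DU arrays. Vnn1, a pantetheinase, fell 2.3-fold. Txnip, described next, was the last of the 4 and also counts among the falls of the antioxidant list.

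Txnip, a thioredoxin-binding protein whose gene is induced by glucose, read 10.12, 9.48 and 10.42 in DT, against 12.08, 12.45 and 12.19 in DU. Its groups were widely separated, and it fell 4.7-fold (adjusted p = 2.02e-05), with an HU mean of 9.67. Among genes of glucose metabolism, 0 of 24 of glycolysis and pyruvate passed. The gluconeogenic fructose bisphosphatases both fell, Fbp2 2.75-fold (8.33, 7.93 and 8.30 in DT, 9.89, 9.53 and 9.52 in DU) and Fbp1 2.08-fold (7.46, 7.01 and 7.13 in DT, 8.24, 8.42 and 8.11 in DU). No other gene of the 17 in gluconeogenesis and glycogen passed.

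The largest fall of the comparison was that of Tdh, threonine dehydrogenase, which breaks threonine down to glycine and acetyl-CoA. It read 6.52, 6.47 and 6.58 in DT, against 11.71, 11.59 and 11.18 in DU, a 31.3-fold difference (-4.97 ± 0.28, adjusted p = 3.77e-07). The DT arrays lay close together and below the mean of HU, 7.29 ± 0.67, whose arrays were spread more widely. Other amino acid genes went both ways. Gls2, a glutaminase, read 11.64, 11.40 and 10.84 in DT and 10.41, 10.21 and 10.32 in DU (1.97-fold higher), above its HU mean of 9.83. Gnmt, a glycine methyltransferase, rose 1.49-fold (adjusted p = 0.0189 by limma), with 0.72 in chip lot 1 and 0.28 in lot 3. The Gnmt call was lost in 3 of the 12 fits that left out an array (adjusted p up to 0.11). Mat1a, which makes S-adenosylmethionine, fell 1.95-fold (adjusted p = 0.031). Gamt, of creatine synthesis, fell 1.51-fold (adjusted p = 0.00744, and 0.0886 in the fit of lot 1 alone). For Mat1a the difference was -0.58 in chip lot 1 and -1.73 in lot 3, and its call was lost in 5 of the 12 fits that left out an array. Of 46 amino acid genes 2 rose and 3 fell.

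The other large falls were of single genes. Cbr1, a carbonyl reductase, read 8.18, 8.06 and 8.16 in DT and 9.90, 10.34 and 10.61 in DU (4.44-fold lower, adjusted p = 1.04e-06), with an HU mean of 7.93. Retsat, retinol saturase, fell 2.98-fold (8.01 ± 0.32 in DT, 9.59 ± 0.30 in DU), the hydrolase Cmbl 3.52-fold (6.72 ± 0.53 in DT, 8.53 ± 0.24 in DU), and Gstm5, a glutathione transferase, 1.4-fold (a call lost in 6 of the 12 fits that left out an array). C8h15orf39 fell 6.54-fold (6.07, 6.03 and 7.90 in DT, 9.27, 8.96 and 9.89 in DU), and replicate 3 was high in both groups. Tp53i11 fell 3.03-fold (5.71, 6.06 and 5.88 in DT, 6.97, 6.96 and 8.51 in DU), with DU replicate 3 far above the other DU arrays. The Tp53i11 call was lost without DT replicate 1 (adjusted p = 0.0747). Most genes of the antioxidant list did not pass: of 61, 1 rose, 3 fell, and the median was 0.02.

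Injury and acute response genes fell in 4 of 31 cases and rose in none, with a median of -0.14. Of all genes 0.567% fell. Clu, the secreted chaperone clusterin, read 9.45, 8.99 and 10.79 in DT, against 11.36, 11.65 and 11.49 in DU and a mean of 11.83 in HU. It was therefore lower on every DT array than on the arrays of the other groups, with replicate 3 nearest to them. The fall of 3.37-fold (adjusted p = 0.0111) was -2.28 in chip lot 1 and -0.69 in lot 3, and a dim second probe set did not pass (-0.18, adjusted p = 0.718). Without DT replicate 1 or without DU replicate 2 the Clu call was lost, with an adjusted p of up to 0.0585. Spp1 (osteopontin, 1.44-fold), Cp (ceruloplasmin, 1.43-fold) and Lcn2 (lipocalin 2, 1.41-fold) also fell, with adjusted p values of 0.0319, 0.0406 and 0.037, and their calls were lost in 5, 9 and 9 of the 12 fits that left out an array.

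Genes of connective tissue and immune cells differed between the chip lots. Of 39 genes of stellate cells, fibroblasts and matrix, only Timp3, an inhibitor of matrix proteases, fell (1.32-fold, adjusted p = 0.0465, at 1 of its 4 probe sets), a call lost in 10 of the 12 fits that left out an array (adjusted p up to 0.194) and with chip lot as a block (0.0604), and the median was -0.21. It was -0.36 in chip lot 1 and 0.05 in lot 3. The collagen Col3a1 read 7.16, 7.38 and 8.31 in DT and 8.78, 8.66 and 8.44 in DU, and the class II chain Cd74 read 8.32, 9.32 and 10.63 in DT and 10.31, 10.20 and 9.87 in DU. DT replicates 1 and 2 were the low arrays for both genes, and replicate 3 was near or above the DU arrays. Among 66 leukocyte genes 0 passed, and their median was -0.23 in lot 1 and 0.24 in lot 3. The summed linear intensity of the 7 stellate and fibroblast markers was 1226 to 2002 in DT and 1758 to 2382 in DU, and that of the 4 macrophage markers 798 to 1205 in DT and 888 to 1275 in DU. None of the 7 or the 4 markers passed on its own.

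**Figure D3:**
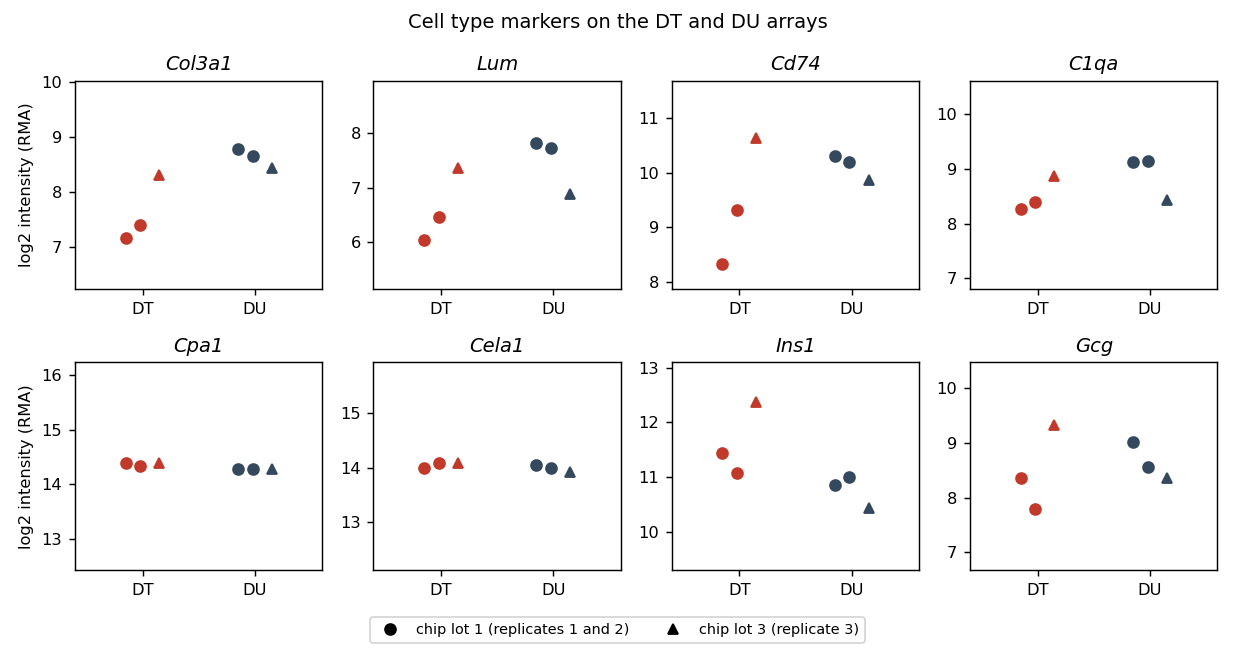
Levels of 8 cell type markers (vertical axis, log2 intensity) on the DT and DU arrays, with circles for chip lot 1 and triangles for chip lot 3. Within lot 1 the stromal and immune markers Col3a1, Lum, Cd74 and C1qa lie lower in DT than in DU, while in lot 3 Lum, Cd74 and C1qa lie higher and Col3a1 differs by -0.13.

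The lots also gave a check on separate arrays. Fitted to the 4 arrays of chip lot 1 alone, 223 probe sets passed (1.41%), 72 higher and 151 lower in DT. On the lot 3 arrays, which that fit did not use, 68 of the 72 higher probe sets (94.4%) were again higher, with a median of 0.70. Of the 151 lower probe sets only 67 (44.4%) were again lower, against the 51.9% of all probe sets that had the same sign in both lots, and their median in lot 3 was 0.09. The 9 fatty acid oxidation genes among the lot 1 falls were all lower in lot 3, whereas of 10 leukocyte genes 0 were, and of 11 stellate and matrix genes 2 were. Of the 151, 44 were also among the 73 falls of the fit of 12 arrays. The part of the stromal and immune content of the pools in the remaining 107 was not tested.

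Within the 177 probe sets the sign was the same in both lots and the size varied. All 104 rises were above 0 in both lots, with medians of 0.73 in lot 1 and 0.69 in lot 3, and all 73 falls were below 0 in both, with medians of -0.86 and -0.70. Since the arrays of both lots entered the fit, this describes the calls and is no separate test. The lot 3 difference was less than 50% of that in lot 1 for 7 rises and 12 falls, and more than 2 times as large for 7 rises and 4 falls. The difference was larger in lot 3 than in lot 1 for 52 of the rises and 29 of the falls. DT replicates 1 and 2 and DU replicate 1 were scanned on the same day, and on those 3 arrays all 177 kept their sign. The DT and DU arrays did not overlap in any of the 177. The sign in each lot or day was thereby fixed in advance, and only the sizes carry information.

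**Figure D4:**
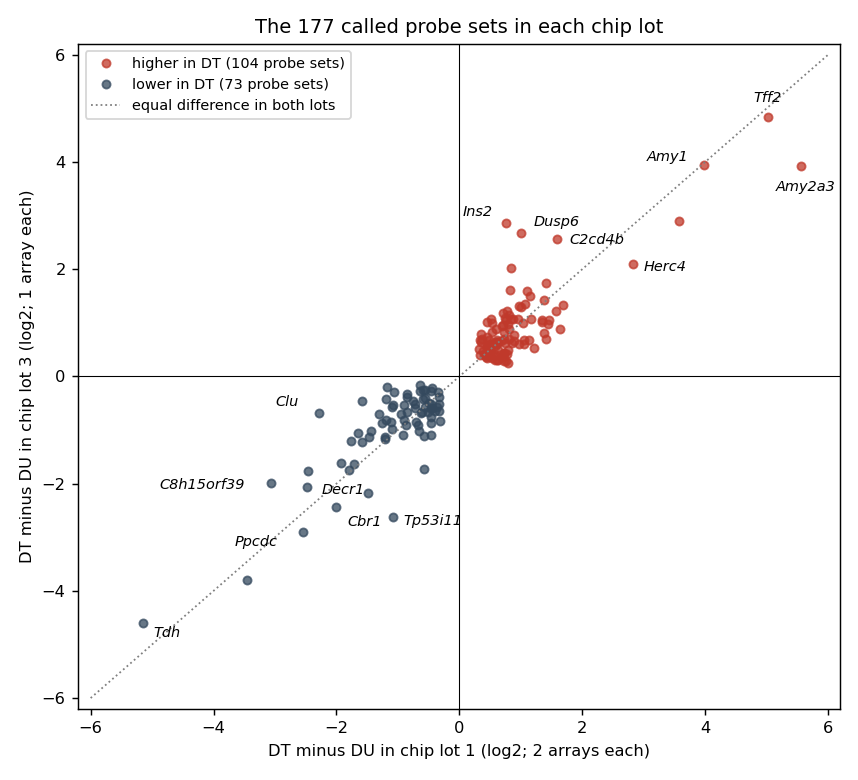
DT minus DU of the 177 called probe sets in chip lot 1 (horizontal axis, log2) and chip lot 3 (vertical axis, log2), each point 1 probe set, with a dotted line where the lots are equal. All 104 rises lie in the upper right and all 73 falls in the lower left, Ins2 and Dusp6 lie above the line and Clu lies far above it among the falls.

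Many other functions showed few calls. In the lists for ribosome and translation (57 genes), respiratory chain and ATP synthase (65), cell cycle and apoptosis (62), pan-endocrine genes (18), the endothelium (14), smooth muscle (15), adipocytes (15), nerve (13) and blood (6), 0 genes passed in either direction. Their medians lay between -0.06 and 0.08. In solute carriers Aqp8 alone passed among 56, and in the proteasome and ubiquitin list Herc4 alone among 60. The duct cell list had 1 gene up, Tspan8, and 1 down, Spp1. No gene of the 15 for liver or gut tissue or the 7 for other islet hormones passed.

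**Figure D5:**
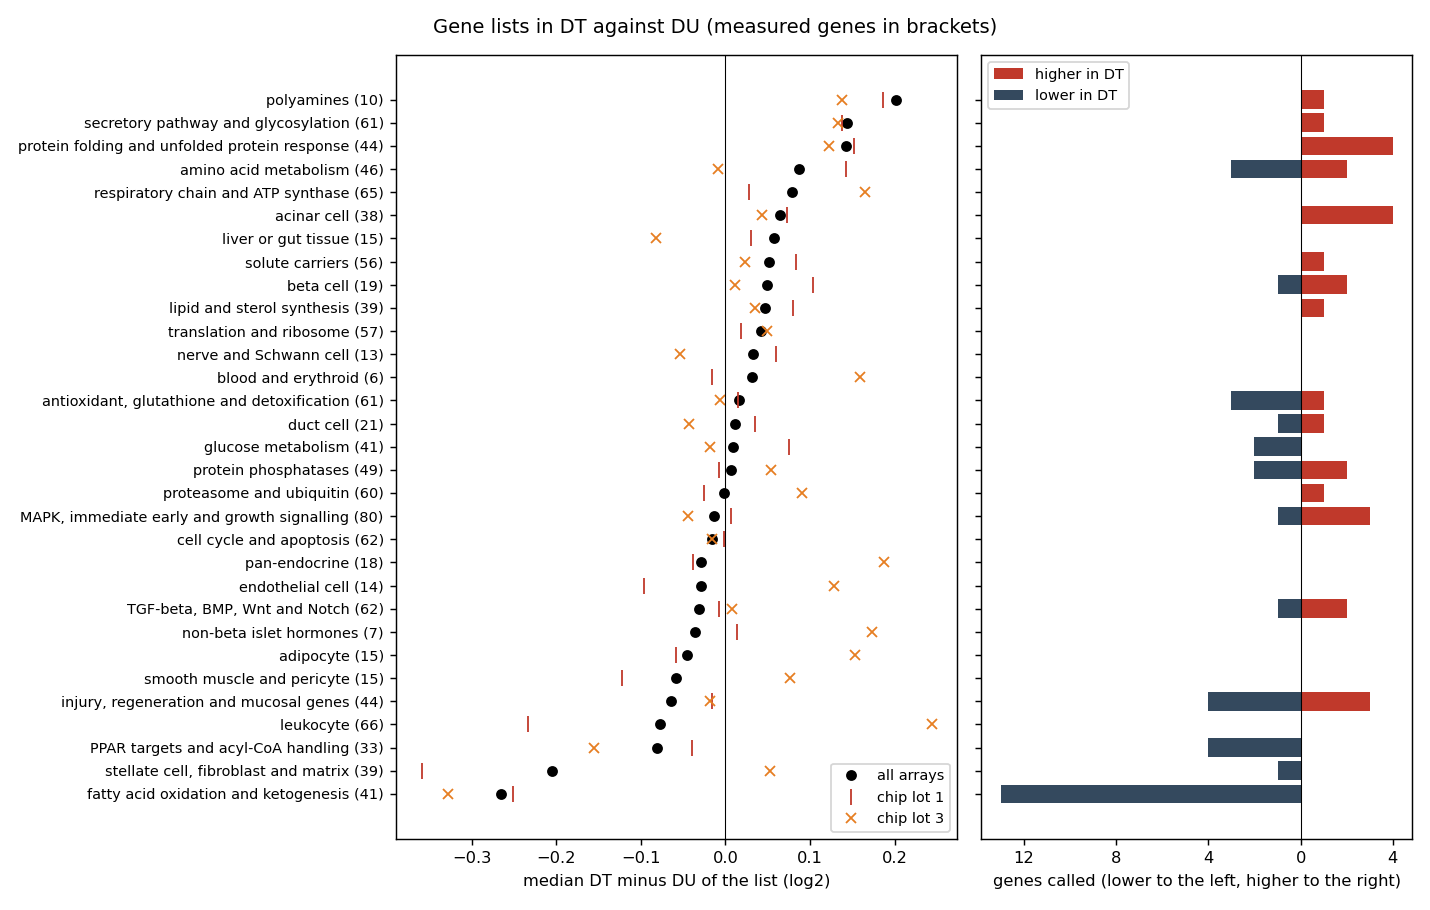
Median DT minus DU of each gene list (left, log2; dots for all arrays, ticks for chip lot 1, crosses for chip lot 3) and number of its genes called (right, higher in DT to the right, lower to the left). Fatty acid oxidation has the lowest median, at -0.26, and 13 genes lower, and the leukocyte and stellate lists show the widest gaps between the lots.

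In healthy rats these probe sets differed little with tungstate. HT replicate 3 lay on chip lot 3 and HU replicate 3 on lot 1, so HT vs. HU is not balanced by lot. The 104 probe sets that rose in DT had a median of -0.02 in HT vs. HU, where 48 of them were above 0, and the 73 that fell had a median of -0.05, with 49 below 0. None of the 177 passed in HT vs. HU, where 1 probe set passed in all and 859 had an unadjusted p under 0.05. The difference between the changes in diabetic and healthy rats, DT vs. DU minus HT vs. HU, passed for 67 of 15866 probe sets (0.422%).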

How the data were processed

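Pancreatic RNA was hybridised to 12 Affymetrix RAE230-A arrays, 3 per group, each a pool of 3 rats. The deposited values are log2 intensities per probe set, which the authors made by RMA (background adjustment, quantile normalization and median polish). Chip lot, scan day and comment came from the deposited record of each array. The 57 control probe sets were left out. A mean per group was fitted to all 12 arrays with limma 3.58.1 in R 4.3.3, so that HT and HU arrays entered the estimate of the spread, and DT vs. DU was adjusted by Benjamini-Hochberg over 15866 probe sets and called at an adjusted p under 0.05. Replicates are separate pools of rats, so p-values measure the spread between pools. The precision is limited by there being 3 arrays a group.

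Of the probe sets, 12783 carried 1 gene symbol (10411 genes, 12748 probe sets matched to RefSeq by Entrez identifier), 312 carried several and 2771 none in the platform annotation. Lists took each gene at its brightest probe set and were described by counts and medians. A rule named 58 genes. It took the 15 largest rises and falls with separate groups, and up to 3 called genes per list and direction. It also took the genes measured by PCR in the study (Tgfb3, Fgf13, Xbp1, Sostdc1, Tspan8, Sel1l, Pebp1, Ins2, amylase and Nupr1). The study chose these on these arrays, so they are not independent evidence. Other list genes given with values, such as Trib3, Hadha, Cpt1a and Ssr2, fell outside the rule and are not among the 58. The members and lists were chosen with earlier results of these data known. The fit was tested on simulated data with independent noise. They held no chip lot, scan day or pool composition effects, so that test does not address these. Alternatives were repeated quantile normalization, median centring, a filter on dim probe sets, only DT and DU arrays, trended and robust variance, chip lot, scan day or replicate number as a block, chip lot 1 or 3 alone, the B-statistic, a stricter threshold and leaving out each array.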

Additional observations from a re-analysis of the deposited data

Results flagged for a closer look

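For 33 of the 58 genes named by rule, the change with tungstate differed between diabetic and healthy rats by a test of that difference in the fit of all 12 arrays (adjusted p under 0.05 by limma). Over all probe sets this test passed for 67 of 15866 (0.422%). Most of the 58 were chosen for their DT vs. DU difference, which is part of the quantity tested, so the number of them that passed is no result. The values below are the change in diabetic rats (DT vs. DU) minus the change in healthy rats (HT vs. HU), in log2 units. The difference does not compare DT with HU, and it was not called for the other 25 genes. It draws on HT vs. HU, which was not balanced by chip lot.

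Among digestive and mucosal genes it was 5.15 for Amy2a3, 4.58 for Amy1, 4.95 for Tff2, 1.40 for Anpep, 1.55 for Tspan8, 1.33 for Fcgbp, 0.77 for Cuzd1 and 1.32 for Aqp8. Tff2 had the smallest adjusted p, 3.71e-09, and Aqp8 the largest of the 33, 0.0434. In healthy rats the difference was 0.01 for Tff2 and -0.61 for Amy1, which did not pass (adjusted p = 0.871 by limma). Amy1 read 10.3, 10.4 and 9.1 in HT and 10.4, 10.5 and 10.7 in HU. The low HT replicate 3 and the dim DU level of Amy1 both enter its 4.58.

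In protein folding it was 0.88 for Xbp1, 1.09 for Sel1l and 0.88 for Sdf2l1, and in signalling it was 1.02 for Tgfb3, 1.10 for Sostdc1 and -0.67 for Pebp1. For the remaining genes that rose it was 2.97 for Herc4, 1.62 for C2cd4b, 1.37 for Sat1, 1.53 for Cd24, 1.52 for Ang, 1.48 for Cyp2d2 and 1.03 for Gstp1.

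Among fatty acid oxidation and PPAR target genes it was -2.27 for Decr1, -1.56 for Ech1, -1.31 for Hadh, -1.24 for Acadl, -0.71 for Hadhb, -1.75 for Angptl4, -2.56 for Ppcdc and -2.21 for Txnip. For the remaining genes that fell it was -4.58 for Tdh, -2.16 for Cbr1, -1.56 for Impa2 and -1.35 for Fbp2.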

How the results depend on the processing

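No call among the named genes reversed in any alternative fit. For most of these fits this was fixed in advance, so it is no sign of robustness. The separate groups of these genes fixed it for fits on fewer arrays and for the scan day block. DT and DU were balanced over lots and over replicate numbers, so blocking by either left the differences as they were. The variance settings, the dim filter, the B-statistic and the stricter threshold also left the sign of a difference alone. Only repeated normalization and median centring altered the values. Of 177 probe sets called (104 higher in DT, 73 lower), 88 (53 higher, 35 lower) were called with the DT and DU arrays alone, and 90 (55 higher, 35 lower) at an adjusted p under 0.01. With scan day as a block 129 were lower, and within chip lot 1 alone 151 were lower. Of the 177, 100 stayed called within lot 1, and 89 in each fit without 1 array (54 higher, 35 lower). With scan day as a block, DT vs. DU rested on DT replicates 1 and 2 and DU replicate 1 alone. Calls of that fit are not counted. Leaving out 1 array gave 104 to 224 calls, 61 to 114 higher and 43 to 110 lower: without DU replicate 1, 104 calls (61 higher, 43 lower), without DU replicate 2, 48 lower, and without DT replicate 3, 110 lower. The causes were not tested. With the other settings (quantile normalization, median centring, the dim filter, trended variance, the B-statistic, chip lot as a block) the counts stayed within 1.5 times.

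Same-numbered DT and DU arrays deviated together with correlations of 0.0486, 0.102 and 0.0223, so the numbers were not taken as pairs. A fit with the replicate block called 165 probe sets (97 higher, 68 lower), of which 150 were among the 177. Of the 58 named genes, 20 lost their call with only DT and DU arrays, 13 within lot 1, 7 with the replicate block, 4 with the chip lot block and 8 to 15 when 1 DT or DU array was left out. Ins2, Egr1, Ptprf and Timp3 were the 4 lost with the chip lot block. Leaving out a DT, DU or healthy array ended at least 1 call of 18 of the 58 genes: Ins2, Egr1, Fgf13, Fzd1, Ptprf, Ptprn2, Ptp4a3, Timp3, Spp1, Lcn2, Gstm5, Mat1a, Gnmt, Fads2, Bet1, Dusp6, Clu and Tp53i11. In all fits other than that with scan day as a block, 9 to 14 fatty acid oxidation genes fell and 3 to 5 folding genes rose. The B-statistic and the stricter threshold were not run for the lists. Lot 3 alone, with 1 array per group, allowed no test. Signals near the top of the array range or near its floor, as for Cpa1 or Amy1 in DU, limit how well changes there can be measured.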
